A study of Mus musculus with 4 samples.

Results

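The cytosolic chaperonin CCT (also called TRiC) is built from 8 related subunits, and the genes followed here are Tcp1, Cct2, Cct3, Cct4, Cct5, Cct6a, Cct7 and Cct8. They were taken by symbol from the 28250 genes listed for each library. Of the 8 genes, 7 had a row with a value in every library. Cct6a was not among the rows analysed, and it is described below from the deposited alignments alone.

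The libraries are RNA-seq of TBV2, a feeder-dependent mouse embryonic stem cell (ESC) line of strain 129/SvP, kept with LIF. Of the 4 libraries, 2 are solvent controls and 2 were made after exposure to 5 µM MS-275, an inhibitor of class I histone deacetylases, with 24 h of exposure in either case. All are from this single line, and nothing in the labels says that the replicates are separate cultures, so the p-values measure the spread between these libraries, which may be technical. The comparison asks how the genes of the chaperonin respond to 1 day of the inhibitor.

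CCT is a pair of stacked rings, and each ring holds every subunit once at a fixed place. A newly made protein enters the cavity, and cycles of ATP binding and hydrolysis close a lid formed by the subunits themselves while the protein folds. Actin and tubulin depend on it, prefoldin and phosducin-like proteins deliver or assist clients, and tubulin is then passed to the tubulin folding cofactors. Dividing cells such as ESCs make large amounts of the complex.

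The subunits share an ancient nucleotide-binding site while their messenger sequences have diverged, which decides how well short reads can be assigned to each gene. The stretch below, from the GENCODE M1 coding transcript of each gene, is shown for this reason. Capitals mark codons for glycine, aspartate, glycine, threonine and threonine, a motif that binds the phosphates of ATP. In Cct8 the last capital codon is for asparagine instead.
Tcp1: gaagttGGAGATGGAACTACCtcagtg
Cct2: gaagttGGTGATGGCACTACCtctgtt
Cct3: gaggttGGAGATGGGACCACAtcagta
Cct4: gaagcaGGAGATGGCACCACGtcggtt
Cct5: gaaattGGAGATGGGACCACAggagtg
Cct6a: ataactGGCGATGGCACTACAtccaat
Cct7: gaggttGGTGATGGCACCACCtcagtg
Cct8: gaggttGGTGATGGCACAAACttcgtt

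The motif begins between codon 87 (Tcp1) and codon 103 (Cct4 and Cct5), and the proteins are 532 to 556 codons long without the stop. The sequences differ between genes even here, where the encoded residues are nearly the same. Of 9425 windows of 35 bases, the length of a deposited alignment, inside the coding exons, 295 occurred elsewhere in the mm9 genome, and 0 of the 46 other places lay in another subunit. Every window of Cct2, Cct5 and Cct8 was unique. The lowest share of unique windows was 87.5%, in Cct3, which has processed copies on chromosome 4 (Cct3-ps1) and chromosome 11 (Gm11516). Exons of Tcp1 overlap those of Acat3, exons of Cct7 those of 1700040I03Rik, and exons of Cct8 those of Usp16 on the annotation, so reads from these overlaps are uncertain. The genes are spread over 8 chromosomes, on mm9: Tcp1 on chromosome 17 (13108567 to 13117933), Cct2 on chromosome 10 (116488054 to 116500870), Cct3 on chromosome 3 (88101038 to 88125689), Cct4 on chromosome 11 (22890519 to 22903780), Cct5 on chromosome 15 (31520555 to 31531602), Cct6a on chromosome 5 (130293315 to 130321696), Cct7 on chromosome 6 (85401499 to 85418471) and Cct8 on chromosome 16 (87483570 to 87496114).

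Before the comparison, the replicates have to be told apart. The deposited value is a normalized signal without a unit, and the highest value of any gene was 1.63 and 1.43 in replicate 1 of solvent and MS-275 against 34.1 and 47.1 in replicate 2. The alignments numbered 23467935 and 20008841 for the files deposited with replicate 1, of which 53.2% and 54.4% repeated a position, and 9785619 and 10915650 for those deposited with replicate 2, with no repeated position. Taken across 10451 genes (which are no independent replicates), log2 values in solvent replicate 1 correlated with the alignments per exon length deposited with solvent replicate 2 at a Pearson's r of 0.926, and with its own at 0.888, and the same held for the other 3 libraries. The mitochondrial genes ND5 and ND6 had values in replicate 1 alone, while mitochondrial alignments were found in the files of replicate 2 alone (13431 and 13889). The names disagree too: headers of the value tables call replicate 1 old, and the alignment files called old are those deposited with replicate 2. Whether files were exchanged or repeated positions were handled differently was not tested. Both conditions are affected alike, so replicates below are named by the table they come from. As a check of the cell type, all 10 ESC markers were present in every library, with a summed value of 6.17 and 24.4 with solvent and 4.87 and 13.6 with MS-275. All 10 were lower with MS-275 in both replicate pairs, against 26.5% of all genes tested. The 10 markers of feeder fibroblasts summed to 0.390 and 0.549 with solvent and 0.660 and 0.937 with MS-275, and none was listed at 0. The part of either marker list in the results below was not tested, and in bulk RNA fewer cells of a type and less RNA per cell cannot be told apart.

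The subunits stood near the top of the deposited values, whose relation to gene length is not given. With solvent, Cct5 ranked 37th of 28250 genes in replicate 1 and 136th in replicate 2. Cct8 ranked 52nd and 85th, and the lowest rank of a subunit with solvent was that of Tcp1, at 242 in replicate 2. With MS-275 the ranks ran from 40 (Cct5, replicate 1) to 647 (Tcp1, replicate 2).

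Because the formula of the value is not given, levels were compared between subunits only per coding length, as coding-exon alignments per kilobase per 1000000 exonic alignments. Cct8 had the highest level in 4 of 4 libraries. It stood at 613 and 182 with solvent and at 609 and 173 with MS-275, for the alignments deposited with replicates 1 and 2. The other 7 subunits lay between 321 and 461 and between 144 and 170 with solvent, and between 202 and 336 and between 124 and 161 with MS-275. Cct3 was lowest in 3 of the 4 libraries. Between these ends the order was not stable: Cct6a was the second highest in the solvent alignments of replicate 1 and the lowest in those of replicate 2, and Cct5, Cct2, Cct6a, Cct7, Cct4 and Tcp1 changed places between libraries. Over the 4 libraries the mean level of Cct8 was 1.98 times that of Cct3. With each position counted once this factor was 1.39, so its size depends on whether repeated positions are kept. Of the 1162 coding windows of Cct3, 145 occur elsewhere in the genome. They held 0 and 15 alignments with solvent and 0 and 14 with MS-275, for the files of replicates 1 and 2. The level counts them as possible positions, and their part in the rank of Cct3 and in this factor was not tested.

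**Figure D1:**
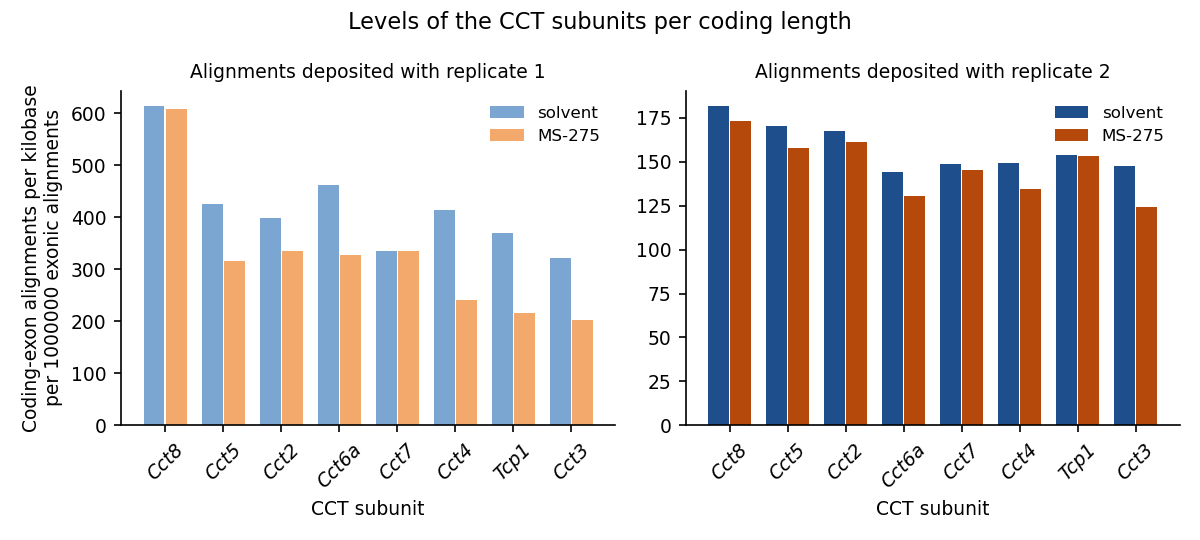
Coding-exon alignments per kilobase per 1000000 exonic alignments (vertical axis, a separate linear scale in each panel) for the 8 subunits with solvent and MS-275, 1 bar for each library. Cct8 is highest in all 4 libraries, and the other subunits lie closer together where no position is repeated (124 to 170) than where positions repeat (202 to 461).

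The subunits filled an unusually large share of the positions open to them. Between 36.4% and 65.3% of all possible start positions on the coding exons of a subunit, both strands counted, were occupied, against a median of 1.15% to 2.14% over 20334 genes. The lowest share was that of Cct3 with MS-275 in the files of replicate 1, where its repeated windows held 0 alignments. At most 0.762% of genes in any library exceeded the lowest subunit, and the fullest gene of a library reached 80.3% to 84.2%. Where no position is repeated, the count of a gene cannot exceed its number of possible positions. The values of replicate 1 were also narrow, from 0.616 (Cct3, MS-275) to 0.902 (Cct5, solvent), while those of replicate 2 ran from 1.11 to 3.61.

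The deposited values were lower with MS-275 in both replicate pairs for 6 of the 7 subunits with a value, and for Cct8 in pair 1 alone. The differences were small, and none passed the test. Among all 20336 genes tested, 26.5% were lower in both pairs. After each library was scaled by the median ratio of its genes, 7 of 7 subunits were lower in both pairs, against 37.1% of all genes.

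Tcp1, the subunit after which the complex was first named, had the lowest log2 fold change of the deposited values. Its value was 0.752 and 1.94 with solvent and 0.743 and 1.11 with MS-275 in replicates 1 and 2. MS-275 stood at 98.8% of solvent in pair 1 and at 57.2% in pair 2, so the difference came from pair 2. In pair 1 Cct3 stood lowest, and after quantile normalization Cct3 (-0.42) and Cct4 (-0.38) lay below Tcp1 (-0.24). The solvent mean was 1.34 ± 0.838 and the MS-275 mean 0.926 ± 0.259 (SD, n = 2 each). The log2 fold change was -0.41, with a standard error of 0.844 and an adjusted p of 0.902 in limma. In the coding-exon alignments the level of Tcp1 was 370 with solvent and 216 with MS-275 in the files of replicate 1. It was 154 and 153 in those of replicate 2. Values correlated more closely with the alignments deposited with the other replicate, so these drops cannot be counted as falls in different libraries.

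Cct4, whose product lies on the side of the ring that binds ATP more tightly, was lower in both pairs. Its value was 0.727 and 2.80 with solvent and 0.622 and 2.17 with MS-275. This is 85.6% and 77.4% of solvent. In limma the log2 fold change was -0.30, its standard error 1.09 and its adjusted p 0.953.

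Cct5 and Cct2 sit on the same ATP-avid side. The value of Cct5 was 0.902 and 2.69 with solvent and 0.833 and 2.15 with MS-275, and its log2 fold change was -0.22. Cct2 was at 0.795 and 2.26 with solvent and at 0.761 and 2.11 with MS-275, a log2 fold change of -0.083. Both were lower in each pair, Cct2 by a few percent, at 95.7% and 93.2% of solvent.

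Cct3, Cct7 and Cct8 build other places of the ring. The value of Cct3 was 0.759 and 3.49 with solvent and 0.616 and 3.19 with MS-275, which is 81.2% and 91.1% of solvent and a log2 fold change of -0.22. Cct7 barely differed, with 0.757 and 2.01 with solvent and 0.741 and 2.00 with MS-275 (log2 fold change -0.018). Cct8 was at 0.865 and 3.40 with solvent and at 0.819 and 3.61 with MS-275, and the fitted change was 0.0044 on the log2 scale.

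In every subunit the solvent and MS-275 values overlapped, since replicate 2 was 1.49 to 5.17 times replicate 1 within a condition. Over the 12273 genes at 0.01 or more in every library, the median of this ratio was 0.782 with solvent and 0.827 with MS-275. The adjusted p of the 7 subunits ranged from 0.902 to 0.999, with 0 of 7 higher and 0 of 7 lower, also at an unadjusted p under 0.05. Of all genes tested, 0.00492% passed as higher (1 gene) and 0.0% as lower, against 2974 and 564 at an unadjusted p under 0.05. With the replicate number as a block, 0 of 7 subunits passed in either direction (adjusted p between 0.382 and 0.994, with 0 at an unadjusted p under 0.05), against 21.0% of genes higher and 6.46% lower. The standard errors with the block, 0.329 to 0.386, were as large as most of the changes.

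**Figure D2:**
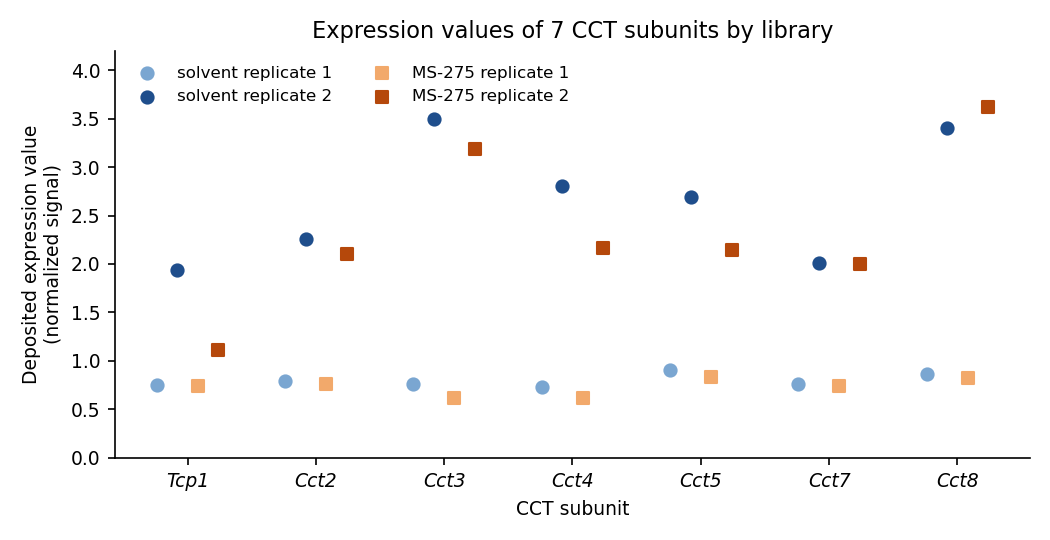
Deposited expression values (vertical axis, normalized signal, linear scale) of the 7 subunits with a value, 1 point for each library. Replicate 2 lies above replicate 1 for every gene and condition, and the largest drop within a replicate is that of Tcp1 in replicate 2, from 1.94 to 1.11.

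The alignments gave a second measurement of the same libraries and the only one of Cct6a. Distinct positions on the exons of each gene were scaled by the median ratio of genes and tested with limma-voom with the replicate number as a block. By this measure all 8 subunits had a negative log2 fold change, from -0.35 to -0.030, with a median of -0.19 against -0.014 over all 17944 genes. Cct3 (-0.35, adjusted p = 0.0105), Tcp1 (-0.32, adjusted p = 0.0154) and Cct4 (-0.28, adjusted p = 0.0430) fell, each with a standard error between 0.113 and 0.117. Thus 3 of 8 passed as lower and 0 as higher, where 21.4% of all genes passed as lower and 24.1% as higher. Without the block 0 of 8 passed in this measurement, and Tcp1 and Cct3 had an unadjusted p under 0.05. Distinct positions are bounded by the possible positions, and on coding exons the subunits filled 36.4% to 65.3% of them. The part of this limit in the calls was not tested.

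These calls depended on the scaling. When the distinct positions were scaled by library totals instead, which raised the median of all genes to 0.14, 0 of 8 subunits passed in either direction (also at an unadjusted p under 0.05), against 13.1% of genes lower and 28.5% higher. The log2 fold changes then ran from -0.20 (Cct3) to 0.12 (Cct7), with Cct2, Cct7 and Cct8 above 0 and a subunit median of -0.040. Cct8, for example, held 178 and 182 distinct positions per kilobase per 1000000 with solvent and 209 and 173 with MS-275, higher in the files of replicate 1 and lower in those of replicate 2. In the files of replicate 1 this level was higher with MS-275 for Cct2, Cct5, Cct6a, Cct7 and Cct8, and in those of replicate 2 it was lower for every subunit. The differences in the files of replicate 2 ran from -0.25 (Cct3) to -0.0023 (Tcp1) on the log2 scale, so not all are falls of any size.

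With repeated positions kept and the same median-ratio scaling, the changes were larger. Over all alignments with limma-voom and the block, Cct4 (-0.63, adjusted p = 0.0238), Tcp1 (-0.63, adjusted p = 0.0283) and Cct3 (-0.61, adjusted p = 0.0267) again passed as lower. Cct6a was at -0.51 (standard error 0.215, adjusted p = 0.0605), just short of the threshold, and Cct5 at -0.43 (adjusted p = 0.120). Cct2, Cct7 and Cct8 lay between -0.32 and -0.21. The background was 18.6% of genes lower and 20.0% higher, and without the block 0 of 8 subunits passed, also at an unadjusted p under 0.05. Scaled by library totals with the block, 0 of 8 passed either (adjusted p between 0.136 and 0.964, 0 at an unadjusted p under 0.05), against 11.1% of genes lower and 27.0% higher. Cct4 and Tcp1 were then both at -0.40, Cct3 at -0.38 and Cct8 at 0.027, where the median of all genes was 0.19. The 2 sets of files differed in size. The level per coding kilobase changed by -0.79 and -0.15 (Cct4), -0.78 and -0.0023 (Tcp1) and -0.67 and -0.25 (Cct3) on the log2 scale, for the files of replicates 1 and 2. Both sets of alignments share their libraries with the values, so the measurements are not independent of each other.

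For Cct6a, a subunit of the side of the ring that binds ATP weakly, the coding exons held 9051 and 1076 alignments with solvent and 5336 and 1088 with MS-275. Its level per kilobase was 461 and 144 with solvent and 327 and 130 with MS-275, lower with MS-275 in both sets.

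**Figure D3:**
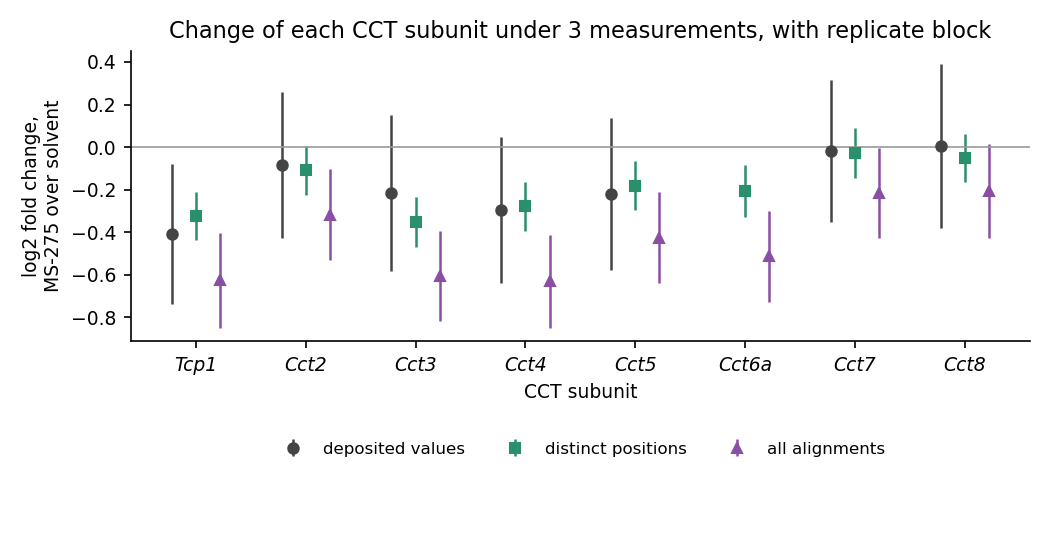
Log2 fold change of MS-275 over solvent (vertical axis) for the 8 subunits from the deposited values, distinct positions and all alignments, each fitted with limma or limma-voom and the replicate number as a block, the alignment counts scaled by the median ratio of genes. Bars are standard errors. Tcp1, Cct3 and Cct4 lie lowest in both alignment measurements, Cct7 and Cct8 lie nearest to 0 in the distinct positions, and Cct6a has no point for the deposited values.

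The change was not even along the transcripts, in most genes as in the subunits. In the alignments deposited with replicate 1, which keep repeated positions, alignments wholly inside internal exons of Tcp1 changed by -1.14 on the log2 scale between solvent and MS-275, while those inside its last exon changed by 0.17. The corresponding counts were 6646 and 2513 for the internal exons and 1734 and 1621 for the last. The gap between these changes was -1.31 for Tcp1, -0.88 for Cct8, -0.83 for Cct4, -0.81 for Cct3, -0.66 for Cct5, -0.60 for Cct2 and -0.46 for Cct7. Both strands were counted, and exons of Tcp1 and Cct8 overlap those of Acat3 and Usp16. The part of reads from these neighbours in the gaps was not tested. In this set the change on internal exons lay below that on the last exon in 7 of 7 subunits, leaving out Cct6a, whose gene model ends at the stop codon and whose short last exon held 87 and 39 alignments. Cct6a went the other way, with a gap of 0.285 in this set and -0.272 in the files of replicate 2. The median gap of the 7 subunits was -0.81 against -0.48 over 6341 genes, of which 87.5% had a negative gap. A lower gap than that of Tcp1 was found in 2.49% of these genes. For the others of the 7 this share ran from 15.7% (Cct8) to 51.6% (Cct7).

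In the alignments deposited with replicate 2, Tcp1 changed by -0.0012 on internal exons (1097 and 1223 alignments) and by -0.031 on the last exon (238 and 260). The gap there was negative in 1 of 7 subunits, with a median of 0.15 against 0.20 over all genes. With internal exons alone, limma-voom with median-ratio scaling and the block again called Tcp1 (-0.64, adjusted p = 0.0212), Cct3 (-0.62, adjusted p = 0.0161) and Cct4 (-0.55, adjusted p = 0.0303) lower, against 16.9% of genes; library totals were not tried on exon classes. With last exons alone 0 of 8 subunits were lower (adjusted p between 0.153 and 0.765), against 16.2% of genes, and 0 had an unadjusted p under 0.05. The log2 fold change on the last exon was -0.14 for Tcp1, -0.42 for Cct3, -0.36 for Cct4, 0.20 for Cct8 and, lowest of the 8, -0.67 for Cct6a (standard error 0.374, adjusted p = 0.180). The cause of the gap was not tested.

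**Figure D4:**
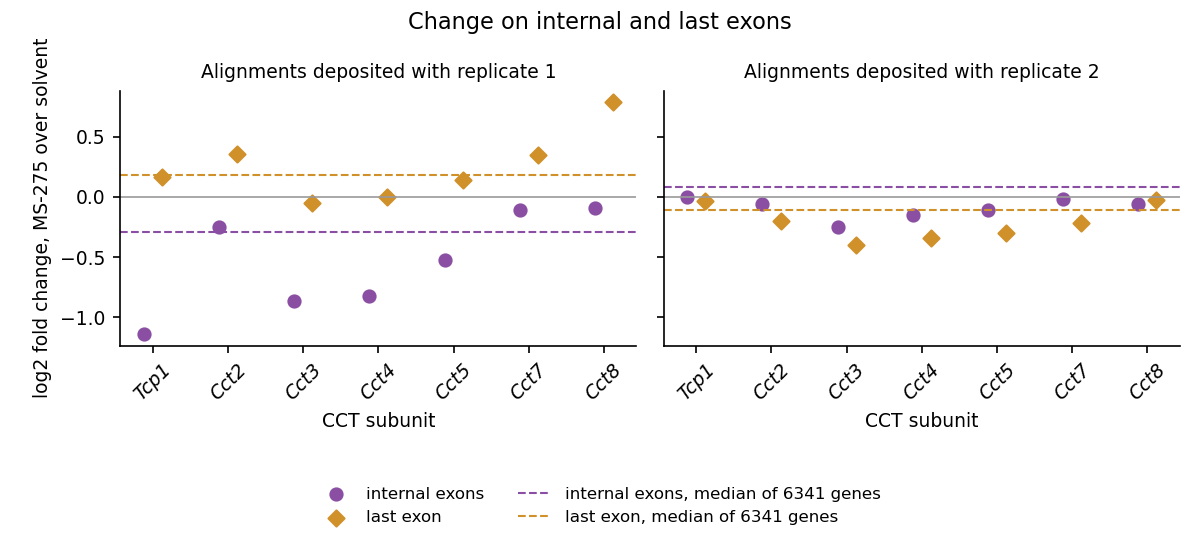
Log2 fold change of MS-275 over solvent (vertical axis) in alignments inside internal exons and inside the last exon of 7 subunits, with the medians of 6341 genes as dashed lines, for the alignments deposited with replicate 1 (left) and replicate 2 (right). On the left every circle lies below its diamond, widest for Tcp1 (-1.14 against 0.17), and on the right the points lie between -0.40 and -0.0012.

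Genes around the chaperonin were described from 9 lists of 58 genes, of which 53 were tested. Without the block 0 passed as higher and 0 as lower, and 6 had an unadjusted p under 0.05 as higher and 0 as lower. With the block 9 passed as higher and 0 as lower, against 21.0% and 6.46% of all genes. Of the 9 genes, 7 were tubulins.

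Among the relatives of the subunits, Cct6b, the testis form of the Cct6a subunit, rose with the block. Its value was 0.0165 and 0.00843 with solvent and 0.0363 and 0.0271 with MS-275, a log2 fold change of 1.10 (adjusted p = 0.441 from limma without the block and 0.0151 with it). With the block and quantile normalization it did not pass (0.62, adjusted p = 0.165). These values are far below those of the 7 subunits. Cct8l1 had values from 0.00102 to 0.00470 and a fitted change of -0.47 (adjusted p = 0.371, or 0.132 with the block). Bbs10, a chaperonin-like gene of the cilium, had a log2 fold change of 0.21.

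Among the helpers that hand over clients, 0 passed in either fit. Of the prefoldin subunits 4 of 6 were tested, with a median log2 fold change of 0.24. Pfdn6 was the only prefoldin gene higher in both pairs, at 0.397 and 1.19 with solvent and 0.453 and 2.41 with MS-275. The 4 phosducin-like cofactors had a median of 0.15, with Pdcl2 at -0.26. The 6 tubulin folding cofactors had a median of 0.25. Tbcc (0.50) and Tbcb (0.47), which bind tubulin after its release, were higher in both pairs, and Tbce (-0.25) and the small GTPase Arl2 (-0.086) lower.

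Among the clients, 7 of 16 tubulins and 1 of 6 actins passed as higher with the block in the deposited values, against 21.0% of all genes. As lower, 0 clients passed in that fit, against 6.46% of all genes. Of the 16 tubulins tested, 13 were higher in both pairs and 1, Tubb5, was lower, where 50% of all genes (10163 of 20336) were higher and 26.5% lower in both. Their median log2 fold change was 0.56, against 0.20 over all genes. Tubb4a had a value of 0.0165 and 0.00896 with solvent and 0.131 and 0.0750 with MS-275 (log2 fold change 2.59, adjusted p = 0.0741 without the block and 1.35e-05 with it). Tuba3b was at 0.0132 and 0.00780 with solvent and at 0.0828 and 0.0536 with MS-275 (log2 fold change 2.23, adjusted p = 0.104 and 6.54e-05). For both genes each MS-275 value exceeded each solvent value, from a low level, and near-identical tubulin genes can share reads. Tubb5, a widely expressed beta tubulin, was at 1.18 and 5.14 with solvent and 1.14 and 2.83 with MS-275.

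Of the 6 actins, Acta2, the smooth muscle form, rose with the block (log2 fold change 0.96, adjusted p = 0.613 without it and 0.0269 with it). With the block it did not pass after median-ratio scaling (adjusted p = 0.0687) or quantile normalization (adjusted p = 0.212). Actb, cytoplasmic beta actin, was at 0.637 and 19.1 with solvent and 0.683 and 40.5 with MS-275, and Actg1 had a log2 fold change of -0.34. Neither passed. The 9 other clients tested had a median of -0.24, and 5 were lower in both pairs (26.5% of all genes were), with 0 past the threshold in either fit. Cdc20, an activator of the anaphase-promoting complex, was at -0.44, the G protein subunit Gnb1 at -0.37 and Vhl, a tumour suppressor folded by CCT, at 0.11. The heat shock factors Hsf1 and Hsf2, regulators of chaperone genes, had log2 fold changes of -0.13 and 0.22, and the mitochondrial chaperonin gene Hspd1 was at -0.42.

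**Figure D5:**
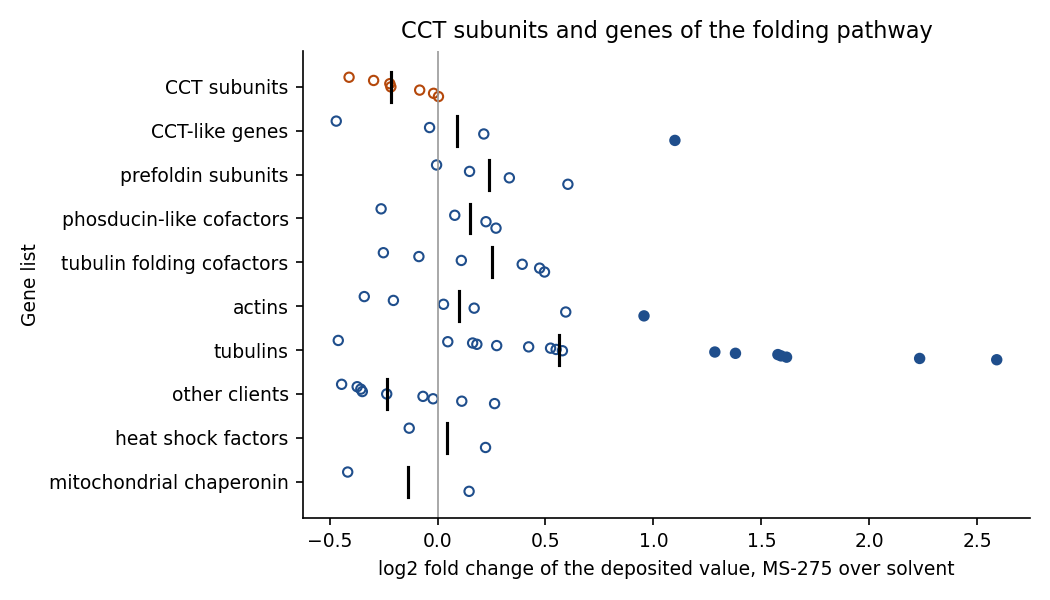
Log2 fold change of the deposited value (horizontal axis) for each tested gene of the CCT subunits and 9 related lists (vertical axis), with filled circles for genes that passed an adjusted p of 0.05 with the replicate block and black bars for list medians. The 7 subunits lie between -0.41 and 0.0044, and 7 of the 9 filled circles are tubulins.

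The genes with the most similar course over the 4 libraries, among 326 other genes with a mean value of at least 1.14, were Eif3k, a translation initiation factor subunit, the splicing factor Srsf6, the actin-severing gene Dstn, LOC100502647 and the RNA-binding gene Lsm3. Their root mean square distance from the mean course of the subunits was 0.022 to 0.051 on the log2 scale. The subunits themselves lay 0.096 (Cct5) to 0.396 (Tcp1) from it. Eif3k, for example, was at 0.660 and 2.17 with solvent and 0.614 and 1.78 with MS-275. In all of them, as in the subunits, replicate 2 lay above replicate 1 in both conditions. This follows from choosing them by their course over these libraries and is no separate result.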

How the data were processed

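The authors mapped the reads to mm9 and made a normalized signal per gene with Genomatix. They deposited this signal, whose formula is not given in the sources used here, and the alignments of 35 bases. How many reads stand behind a value is unknown. Their tables of ratios and their shorter tables were not used.

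The test covered genes whose signal reached 0.001 in 2 or more libraries. It was made with limma 3.58.1 (lmFit and eBayes with trend, R 4.3.3) on log2(value + 0.005), so fold changes of low genes are understated. P-values were adjusted by the Benjamini-Hochberg method over all genes, with a threshold of 0.05. Replicates were paired because the headers of the value tables name replicate 1 of either condition as old (alignment files named old belong to replicate 2). The deviations from the group means correlated at 0.764 within a replicate number. Alignments were counted on GENCODE M1 exons with Python 3.11.15 scaled by the median ratio of genes and tested with limma-voom from 10 alignments in 2 libraries. Exon classes used genes of at least 5 exons, with at least 50 internal and 20 last-exon alignments. The limma and limma-voom steps were run on simulated data with known changes. These data held no repeated positions and no limit on positions, so they do not test those features of the libraries.

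The subunits and gene lists were chosen with earlier results of these data known. Genes named from a list are the 2 with the largest change in each direction among those that moved alike in both pairs, and Hsf1 and Hsf2 were added after their values were seen. Fits with all alignments, internal exons or last exons and the block, and those scaled by library totals, were chosen after seeing the data. The other alternatives were the scaling, pseudocount, filter, trend, block, distinct positions and each library left out.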

Additional observations from a re-analysis of the deposited data

How the results depend on the processing

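No setting called a subunit higher, and the deposited values called 0 lower under every scaling, pseudocount and filter. With the replicate block 3 subunits were lower over distinct positions, all alignments and internal exons, and 0 over last exons or, scaled by library totals, over distinct positions or all alignments. The median log2 fold change of the subunits, -0.22, was -0.45 after median-ratio scaling with or without the block, -0.40 over all alignments, -0.47 over all alignments with the block, -0.41 over internal exons with the block and -0.040 over distinct positions with the block and library totals. With the block and library totals Cct2 turned to 0.045 over distinct positions and Cct7 to 0.12 over distinct positions and 0.015 over all alignments. Median-ratio scaling moved the median of all genes tested from 0.20 to 0.028, and quantile normalization moved it to -0.032. Cct8, at 0.0044, was negative after median-ratio scaling (-0.23) and quantile normalization (-0.094), each with or without the block, over distinct positions (-0.056, and -0.050 with the block), over all alignments (-0.12, and -0.21 with the block) and over internal exons (-0.13).

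Among the partner genes 0 were called in either direction in the values as reported without the block. As higher, 3 were called with a mean value of at least 0.01, 9 with the block, 8 with the block and median-ratio scaling, 10 with the block and quantile normalization, 6 over distinct positions, 9 over distinct positions or all alignments with the block, 11 and 10 over these with library totals, 5 over internal exons and 2 over last exons. As lower, 1 was called with the block and either scaling, 1 over distinct positions, 9 over distinct positions with the block, 8 over all alignments with the block, 3 and 1 over these with library totals, 4 over internal exons and 2 over last exons. Of all genes with the block, 24.1% were higher and 21.4% lower over distinct positions, and 20.0% and 18.6% over all alignments. With library totals these shares were 28.5% and 13.1%, and 27.0% and 11.1%. In the values with the block they were 21.0% and 6.46%. Over internal and last exons, 16.9% and 16.2% of all genes were lower. Vhl turned to -0.11 after median-ratio scaling with or without the block, -0.052 over distinct positions with or without it and -0.16 and -0.17 over all alignments without and with the block, Arl2 to 0.063 over distinct positions and 0.041 over all alignments with library totals, and Actb to -0.079 over internal exons. The cause was not tested.

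Leaving out 1 library leaves a lone library in a group, assumed to vary like the other group, and carries the offset between replicates into the fold change. The median of the subunits then ranged from -1.01 (without solvent replicate 1) to 0.67 (without solvent replicate 2), and was 0.65 without MS-275 replicate 1 and -0.90 without MS-275 replicate 2, with 0 called. Single subunits ranged from -1.09 to 0.27 (Tcp1), -0.83 to 0.67 (Cct2), -1.40 to 0.96 (Cct3), -1.27 to 0.67 (Cct4), -1.01 to 0.57 (Cct5), -0.73 to 0.70 (Cct7) and -1.06 to 1.07 (Cct8). The partner genes that turned ranged from -0.68 to 1.11 (Bbs10), -0.59 to 1.80 (Pfdn6), -0.69 to 0.16 (Pdcl2), -0.57 to 0.070 (Tbce), -2.35 to 3.53 (Actb), -1.37 to 0.69 (Actg1), -1.52 to 0.60 (Tubb5), -0.26 to 0.48 (Vhl), -1.08 to 0.19 (Cdc20), -0.85 to 0.10 (Gnb1) and -1.51 to 0.68 (Hspd1), with 0 to 1 called higher. The highest over the lowest subunit level ranged from 1.63 to 2.16. The 2 libraries per group limit every test.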

Other observations

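Processed copies of the subunit genes also carried alignments. The copy of Cct3 on chromosome 4 (Cct3-ps1, mm9 52913707 to 52915245) held 422 and 26 alignments with solvent and 196 and 22 with MS-275, for the files deposited with replicates 1 and 2. The copy of Cct4 on chromosome 7 (Gm15495) held 626 and 43 with solvent and 216 and 34 with MS-275, and that of Cct7 on chromosome X (Gm5380) 172 and 40, and 70 and 42. With solvent the coding exons held more, at 6609 and 1156 (Cct3), 8523 and 1172 (Cct4) and 7417 and 1258 (Cct7). The share of reads that came from the copies cannot be read from these counts, since windows shared with another place held few or no alignments. In the files of replicate 1, alignments at windows shared between a subunit and another place numbered 0, and in those of replicate 2 at most 15 in any subunit.

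Introns of the subunits held 0.778 to 9.58 alignments per kilobase per 1000000 exonic alignments, against 124 to 613 on the coding exons.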
